A study of Mus musculus with 8 samples.

Results

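The subject is the circadian clock of Lgr5-traced hair follicle cells, read through 10 of its genes out of the 46078 genes in a table of RNA-seq read counts: the REV-ERB genes Nr1d1 and Nr1d2, the period genes Per1, Per2 and Per3, the D-box factor genes Dbp and Tef, the activators Arntl (also named Bmal1) and Clock, and the cryptochrome gene Cry1. The genes were chosen from clock genes with earlier results of the same libraries known, among them the difference in Nr1d1 between conditions, so the values that compare the conditions describe these libraries and are no evidence on the 10 genes. Counts of calls between conditions stand beside the same counts over all genes, and nothing is read from them. The cells came from epidermis of injured skin of mice labelled Lg5-egfp-ires-creert2/R26-tdTomato, in which an inducible Cre recombinase made from the Lgr5 locus switches on a red fluorescent reporter that Lgr5 cells then pass to their progeny. Both groups share that genotype and the skin injury: Treg-depleted mice lacked regulatory T cells (4 libraries), and Treg-sufficient mice had them (4 libraries). The study ran 2 experiments, with replicates 1 and 2 of each condition in the first and replicates 3 and 4 in the second. The sources used here do not give the means of depletion, how the skin barrier was injured, the age and sex of the mice, whether libraries came from separate animals, or the time of day of harvest, so p-values measure only the spread between these libraries.

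The mammalian clock is a feedback loop of transcription. CLOCK and BMAL1 bind E-boxes and switch on the Per, Cry and Nr1d genes and Dbp; PER and CRY proteins then block CLOCK and BMAL1, while the REV-ERB proteins made from Nr1d1 and Nr1d2 repress Arntl through elements they share with the ROR activators. DBP, TEF and HLF activate genes through D-boxes, which the repressor NFIL3 also binds. In a cycling tissue Arntl and E-box targets such as Nr1d1 and Dbp therefore peak at roughly opposite times of day, which need not hold for every E-box target. In skin, clock genes cycle in keratinocytes and follicle cells, and in the follicle their activity has been tied to the hair cycle and to the state of bulge stem cells. Per1 is in addition a rapid target of glucocorticoids and of cAMP signalling.

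The promoters show where these loops could act in the genes measured. RefSeq promoter windows on GRCm38.p6, from 250 bases before to 50 bases after an annotated start, were at hand for all of the 10 genes but Per2 (14 windows). Motifs were searched on both strands. The canonical E-box CACGTG was found in 4 windows, of Per1, Tef (both of its windows) and Cry1, against 7.15% of all 32851 promoter windows. The E-box variant CACGTT was found in 2, of Nr1d1 and Cry1 (4.68% of all windows). The D-box (TTATGTAA or TTACGTAA) occurred in the Per3 window only, with 2 copies 205 and 158 bases before the start (1.06% of all windows). The core of the ROR and REV-ERB element (TAGGTCA or TGGGTCA) occurred in the second Arntl window only, 30 bases after its start (6.45%). The cAMP element TGACGTCA was found in none (1.79%). These are matches of letters in short windows and not binding sites. The 6 windows below are shown because they hold a match, which is in capitals (Tef by its second window), and each is written 5′ to 3′ on the gene's strand.
Nr1d1 promoter, chr11:98775328-98775627, minus strand: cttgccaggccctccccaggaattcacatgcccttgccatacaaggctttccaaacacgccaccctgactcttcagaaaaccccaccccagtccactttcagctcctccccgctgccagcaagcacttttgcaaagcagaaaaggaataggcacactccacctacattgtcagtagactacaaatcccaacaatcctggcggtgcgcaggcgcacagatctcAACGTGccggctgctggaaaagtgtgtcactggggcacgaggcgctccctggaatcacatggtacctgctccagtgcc
Per1 promoter, chr11:69098699-69098998, plus strand: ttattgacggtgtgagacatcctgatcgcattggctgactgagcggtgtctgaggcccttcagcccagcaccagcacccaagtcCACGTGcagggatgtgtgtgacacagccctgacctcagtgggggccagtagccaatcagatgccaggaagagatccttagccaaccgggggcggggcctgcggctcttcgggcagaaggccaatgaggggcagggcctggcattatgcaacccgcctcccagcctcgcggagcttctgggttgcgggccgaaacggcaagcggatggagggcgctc
Per3 promoter, chr4:151044616-151044915, minus strand: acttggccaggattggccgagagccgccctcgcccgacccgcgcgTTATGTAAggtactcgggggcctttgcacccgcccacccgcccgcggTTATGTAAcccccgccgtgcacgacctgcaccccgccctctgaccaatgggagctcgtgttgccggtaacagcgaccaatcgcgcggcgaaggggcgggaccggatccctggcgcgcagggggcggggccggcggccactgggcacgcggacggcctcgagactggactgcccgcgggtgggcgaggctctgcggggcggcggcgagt
Tef promoter, chr15:81811164-81811463, plus strand: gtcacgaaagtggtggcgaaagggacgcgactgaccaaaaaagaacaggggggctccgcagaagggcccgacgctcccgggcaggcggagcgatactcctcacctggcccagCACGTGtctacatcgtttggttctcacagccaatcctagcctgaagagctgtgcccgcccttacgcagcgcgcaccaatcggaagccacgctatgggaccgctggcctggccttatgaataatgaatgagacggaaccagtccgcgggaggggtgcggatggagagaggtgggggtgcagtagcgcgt
Arntl promoter, chr7:113207261-113207560, plus strand: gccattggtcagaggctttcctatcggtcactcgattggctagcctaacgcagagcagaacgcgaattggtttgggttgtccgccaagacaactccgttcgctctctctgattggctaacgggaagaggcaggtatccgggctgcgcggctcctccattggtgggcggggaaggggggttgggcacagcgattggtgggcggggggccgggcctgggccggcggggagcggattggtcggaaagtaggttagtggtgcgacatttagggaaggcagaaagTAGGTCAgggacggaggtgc
Cry1 promoter, chr10:85185005-85185304, minus strand: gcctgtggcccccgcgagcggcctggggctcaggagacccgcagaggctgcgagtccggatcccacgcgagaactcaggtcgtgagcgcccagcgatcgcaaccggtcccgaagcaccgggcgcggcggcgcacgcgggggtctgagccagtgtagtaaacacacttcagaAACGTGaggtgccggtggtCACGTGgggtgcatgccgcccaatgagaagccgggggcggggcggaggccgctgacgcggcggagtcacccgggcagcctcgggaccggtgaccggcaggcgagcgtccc

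The libraries held 22330729 to 29975347 counts over genes. Of the 7 markers listed for the labelled cell type, Lgr5 stood at 289 to 540 CPM (counts scaled to a common library total) with Tregs depleted, against 350 to 498 CPM in Treg-sufficient libraries. Krt15 was at or above 3428 CPM in all 8. Cd34 varied more, with 430, 565, 287 and 77.5 CPM in Treg-depleted against 282, 246, 86.3 and 74.5 CPM in Treg-sufficient replicates 1 to 4. Tcf7l1 stood at 22.0 to 32.1 CPM in experiment 1 and 42.0 to 47.4 CPM in experiment 2. Over the 8 libraries Sox9 ran from 221 to 336, Lhx2 from 231 to 528 and Nfatc1 from 122.5 to 194 CPM. T cell markers summed to 0 to 1.08 CPM with Tregs depleted, against 0.277 to 2.44 CPM in Treg-sufficient libraries. Xist reached 72.0 CPM for Treg-depleted replicate 2, against 2713 CPM for Treg-sufficient replicate 2, both of experiment 1, while the remaining 6 libraries held 0.968 to 2.26 CPM. The 2 with more Xist are named below as the libraries that held Xist reads. They were not alike in Y-linked genes, which summed to 340 CPM for Treg-depleted replicate 2 and 23.6 CPM for Treg-sufficient replicate 2. In the remaining 6 that sum was 348 to 449 CPM. Treg-depleted replicate 2 also had counts for the fewest genes (18605, against 19593 to 23062 in the other libraries). In both experiments the 8 cell cycle genes listed had negative log2 fold changes (Treg-depleted over Treg-sufficient, median -1.33 in experiment 1 and -0.20 in experiment 2), and Mki67 stood at 140, 305, 896 and 1006 CPM in Treg-depleted against 862, 620, 1166 and 1024 CPM in Treg-sufficient replicates 1 to 4. The part of these differences in the clock values was not tested. In bulk RNA, fewer cells of a type and less RNA per cell cannot be told apart.

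All 10 clock genes were expressed in both conditions, with at least 95 counts in every library. To compare genes, levels were divided by exon length. In Treg-sufficient libraries the order of mean CPM per kb of exons ran from Per2 (1.09 ± 0.335), Dbp (1.81 ± 0.700) and Per3 (1.95 ± 0.375) through Nr1d1 (4.0 ± 1.6), Cry1 (4.27 ± 0.984), Arntl (6.64 ± 1.39), Clock (8.26 ± 0.597) and Per1 (8.84 ± 2.80) to Tef (11.0 ± 2.27) and Nr1d2 (15.3 ± 1.92; SD, n = 4). Neighbours in that order overlapped between libraries except at 3 steps: Nr1d1 lay above Per3, Arntl above Cry1, and Nr1d2 above Tef in all 4 libraries of each gene. In Treg-depleted libraries Per1 averaged 24.7 ± 11.4, Nr1d2 23.6 ± 6.88 and Nr1d1 12.9 ± 8.97 CPM per kb (SD, n = 4), so that Per1 and Nr1d1 stood higher in the order there, with ranges that overlapped those of their neighbours.

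**Figure D1:**
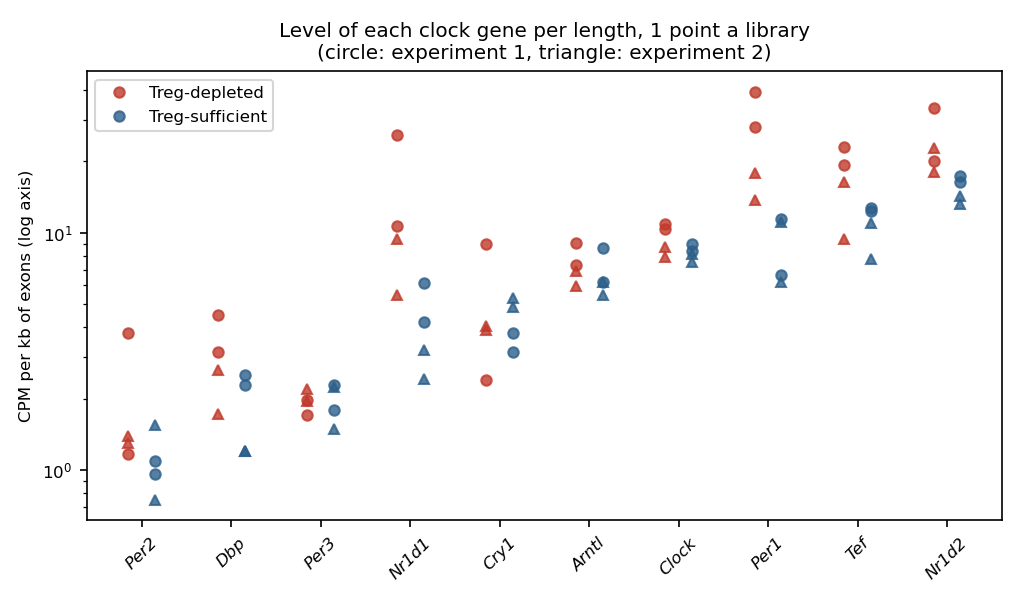
Level of each of the 10 clock genes as CPM per kb of exons (log axis), with 1 point per library, Treg-depleted (red) left of Treg-sufficient (blue), ordered by the Treg-sufficient mean. Per2 is lowest (1.09) and Nr1d2 highest (15.3) in Treg-sufficient libraries, and Treg-depleted points of Nr1d1 and Per1 reach 25.9 and 39.3.

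The REV-ERB genes were higher with regulatory T cells depleted, in both experiments. Nr1d1 encodes REV-ERB alpha, the repressor that links the negative loop to Arntl (ENSMUSG00000020889, GRCm38 chromosome 11, 98767932 to 98775333, minus strand, protein coding, 8 exon blocks). It stood at 79.7, 32.8, 28.9 and 16.9 CPM in Treg-depleted replicates 1 to 4 and at 18.9, 13.0, 9.88 and 7.48 CPM in Treg-sufficient replicates 1 to 4. Within each experiment both Treg-depleted libraries lay above both Treg-sufficient ones, but Treg-depleted replicate 4 lay below Treg-sufficient replicate 1, so the 4 and 4 overlapped. The log2 fold change was 1.61 (SE 0.31; 3.06-fold), with 1.82 (SE 0.44) in experiment 1 and 1.40 (SE 0.45) in experiment 2. Without Treg-depleted replicate 1, the highest library, it was 1.25, and 1.02 within experiment 1.

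Nr1d2 encodes REV-ERB beta, which overlaps in function with REV-ERB alpha (ENSMUSG00000021775, chromosome 14, 18204054 to 18239127, minus strand). Its levels were 181, 109, 124 and 97.2 CPM in Treg-depleted against 94.2, 88.3, 71.2 and 77.4 CPM in Treg-sufficient replicates 1 to 4. All 4 Treg-depleted libraries stood above all 4 Treg-sufficient ones, by a smaller fold than for Nr1d1 (log2 fold change 0.62, SE 0.16; 0.67 in experiment 1 and 0.57 in experiment 2). Leaving out Treg-depleted replicate 1 gave 0.43, and 0.23 within experiment 1. The ratio of Nr1d1 to Nr1d2 per kb, which does not depend on library scaling, was -0.37, -0.91, -1.28 and -1.71 in Treg-depleted against -1.5, -1.95, -2.04 and -2.56 in Treg-sufficient replicates 1 to 4 on the log2 scale.

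Of the period genes, whose proteins close the negative loop with the cryptochromes, Per1 had the larger difference (ENSMUSG00000020893, chromosome 11, 69095217 to 69109960, plus strand). It stood at 221, 156, 101 and 77.5 CPM in Treg-depleted replicates 1 to 4 and at 64.2, 37.3, 35.0 and 62.6 CPM in Treg-sufficient ones. Again all 4 Treg-depleted libraries were above all 4 Treg-sufficient libraries (log2 fold change 1.38, SE 0.30; 2.61-fold). The value was 1.90 (SE 0.36) in experiment 1 and 0.87 (SE 0.35) in experiment 2, and in experiment 2 it ran from 0.51 without Treg-sufficient replicate 3 to 1.35 without Treg-sufficient replicate 4.

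Per2 and Per3 did not share that pattern. Per2 (ENSMUSG00000055866, chromosome 1, 91415982 to 91459324, minus strand) stood at 6.84, 22.2, 8.14 and 7.59 CPM in Treg-depleted against 6.39, 5.67, 4.38 and 9.04 CPM in Treg-sufficient replicates 1 to 4. Its fold change rested on Treg-depleted replicate 2, which had counts for the fewest genes and is in the pair of libraries with Xist reads: 0.75 (SE 0.41) on the log2 scale with it and 0.19 without it. Per3, a period gene with little role in keeping the rhythm in mice (ENSMUSG00000028957, chromosome 4, 151003652 to 151044665, minus strand), stood at 18.9, 16.4, 21.2 and 18.8 CPM in Treg-depleted against 21.9, 17.2, 14.3 and 21.4 CPM in Treg-sufficient replicates 1 to 4, with a log2 fold change of 0.01 (SE 0.17) that changed sign under other scaling. The log2 ratio of Per1 to Per3 per kb was accordingly 4.32, 4.02, 3.02 and 2.81 in Treg-depleted and 2.32, 1.89, 2.06 and 2.32 in Treg-sufficient replicates 1 to 4, with no overlap.

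Of the D-box factors, Dbp had higher levels in Treg-depleted libraries within each experiment, and Tef in experiment 1. Dbp, a direct E-box target and output factor of the clock (ENSMUSG00000059824, chromosome 7, 45705088 to 45710203, plus strand), stood at 13.4, 9.41, 7.91 and 5.18 CPM in Treg-depleted against 7.56, 6.87, 3.62 and 3.61 CPM in Treg-sufficient replicates 1 to 4. As for Nr1d1, the groups separated within each experiment and overlapped across them (log2 fold change 0.76, SE 0.21; 0.67 in experiment 1 and 0.85 in experiment 2). Without Treg-depleted replicate 1 the value in experiment 1 was 0.36, and without Treg-depleted replicate 3 that in experiment 2 was 0.52. Tef, a related D-box activator (ENSMUSG00000022389, chromosome 15, 81802421 to 81826863, plus strand), stood at 181, 152, 128 and 74.2 CPM in Treg-depleted against 96.9, 100.5, 61.0 and 86.8 CPM in Treg-sufficient replicates 1 to 4. The Tef groups separated in experiment 1 and overlapped in experiment 2 (log2 fold change 0.60, SE 0.19; 0.75 in experiment 1 and 0.45 in experiment 2), where leaving out Treg-depleted replicate 3 gave 0.01. Dbp shares 539 exonic bases (18% of its own) with Sphk2 on the other strand, and Nr1d1 shares 263 (8.55%) with Thra. The strand setting of the counting is not given in the sources used here, so reads of those stretches cannot be told apart. Sphk2 had 1030, 788, 865 and 980 counts in Treg-depleted and 1310, 1366, 1040 and 1180 counts in Treg-sufficient replicates 1 to 4. Thra had 4341, 2402, 2718 and 2494 counts in Treg-depleted and 2891, 3218, 2949 and 2492 counts in Treg-sufficient replicates 1 to 4, with its highest count, like that of Nr1d1, in Treg-depleted replicate 1. The part of these overlaps in the values of Dbp and Nr1d1 was not tested.

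The activators and Cry1 differed less between conditions. Arntl encodes BMAL1, the partner of CLOCK and a target of REV-ERB repression (ENSMUSG00000055116, chromosome 7, 113207465 to 113314126, plus strand). It stood at 68.3, 55.2, 52.0 and 44.9 CPM in Treg-depleted against 46.7, 65.1, 41.3 and 46.7 CPM in Treg-sufficient replicates 1 to 4. The groups overlapped, and the log2 fold change was 0.14 (SE 0.13), with 0.14 in each experiment. In none of the alternatives run between conditions did Arntl have a negative value, the lowest being 0.05 without Treg-sufficient replicate 1, while within experiment 1 leaving out that library gave -0.08. Clock, the other activator (ENSMUSG00000029238, chromosome 5, 76209868 to 76304792, minus strand), stood at 150, 142, 120 and 108 CPM in Treg-depleted against 115, 123, 104 and 111 CPM in Treg-sufficient replicates 1 to 4 (log2 fold change 0.19, SE 0.09). Its libraries separated in experiment 1 (0.30) and overlapped in experiment 2 (0.08).

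Cry1, a repressor that acts with the PER proteins and carries both kinds of E-box in its promoter (ENSMUSG00000020038, chromosome 10, 85131700 to 85185064, minus strand), stood at 8.04, 30.1, 12.9 and 13.6 CPM in Treg-depleted against 12.7, 10.5, 16.2 and 17.7 CPM in Treg-sufficient replicates 1 to 4. The highest and the lowest value of Cry1 were thus the 2 Treg-depleted libraries of experiment 1. In experiment 2 both Treg-depleted libraries lay below both Treg-sufficient ones (log2 fold change -0.36, SE 0.50). Its log2 fold change between conditions of 0.18 (SE 0.39) was -0.44 without Treg-depleted replicate 2 and 0.37 without Treg-depleted replicate 1.

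**Figure D2:**
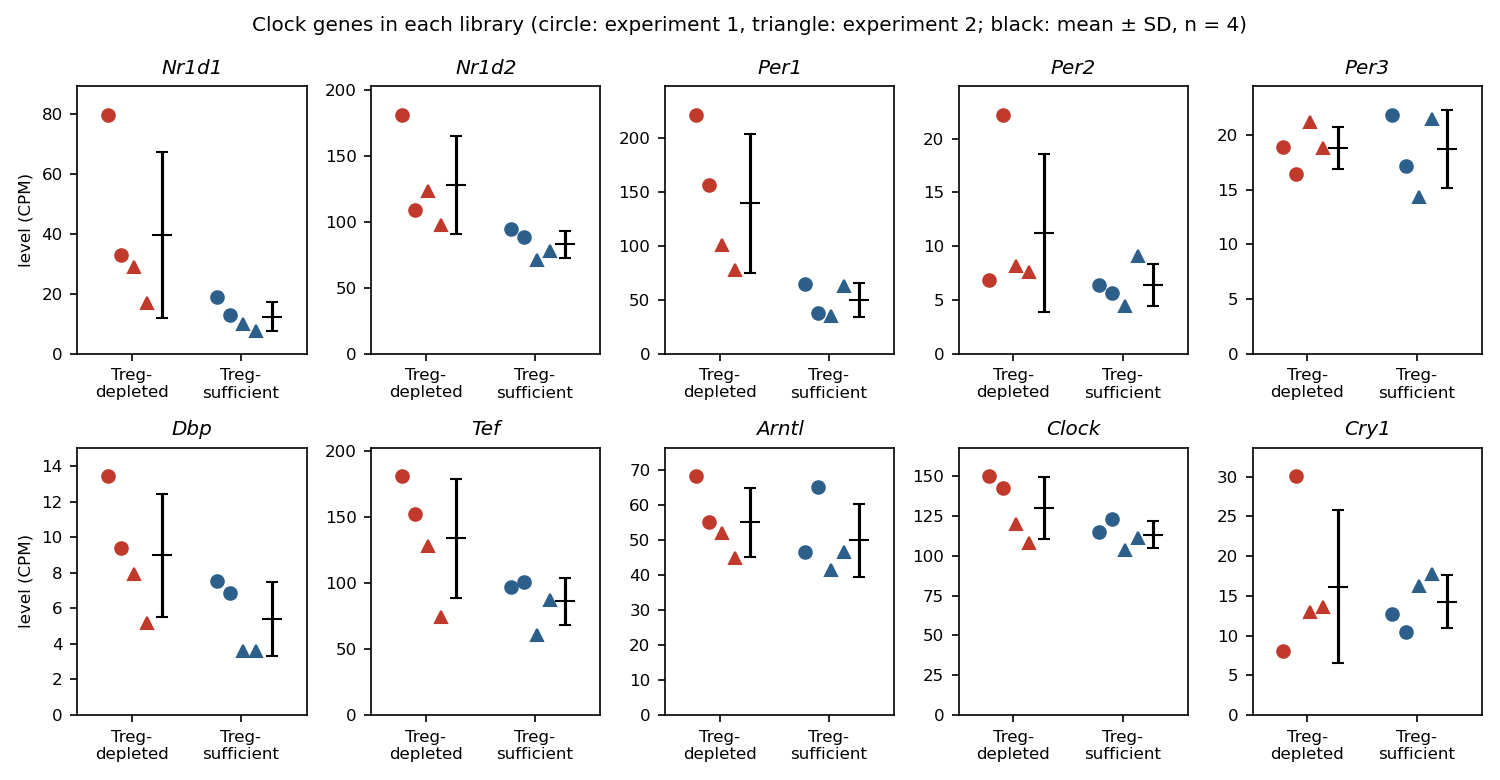
Levels of the 10 clock genes in CPM, 1 point per library (circles: experiment 1, triangles: experiment 2), Treg-depleted (red) left of Treg-sufficient (blue), with the mean and SD of 4 libraries in black. The groups do not overlap for Nr1d2 and Per1, and single Treg-depleted libraries stand out for Per2 (22.2 CPM) and Cry1 (30.1 CPM).

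Levels of clock genes were also set against Arntl within each library. The log2 ratio of Nr1d1 to Arntl per kb was 1.51, 0.54, 0.44 and -0.12 in Treg-depleted and -0.02, -1.04, -0.78 and -1.35 in Treg-sufficient replicates 1 to 4. For Per1 to Arntl it averaged 1.65 ± 0.43 in Treg-depleted and 0.38 ± 0.60 in Treg-sufficient libraries, and for Dbp to Arntl -1.35 ± 0.33 and -1.94 ± 0.47 (SD, n = 4 each). For Cry1 to Arntl the log2 ratio averaged -0.75 ± 0.91 in Treg-depleted against -0.64 ± 0.60 in Treg-sufficient libraries, with overlap. The log2 ratio of Clock to Arntl averaged 0.38 ± 0.10 in Treg-depleted and 0.33 ± 0.19 in Treg-sufficient libraries. Between the 2 Treg-depleted libraries of experiment 1, which are replicates, 8 of the 10 genes were higher in replicate 1, while Per2 and Cry1 were lower there by 1.70 and 1.90 log2 units (log2 ratios of -1.70 and -1.90). Between the Treg-depleted libraries of experiment 2, 9 of 10 were higher in replicate 3, by at most 0.79.

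Without the pair of libraries that held Xist reads, the log2 fold changes between conditions were 1.61 for Nr1d1, 0.68 for Nr1d2, 1.16 for Per1, 0.83 for Dbp, 0.59 for Tef, 0.26 for Arntl and 0.17 for Clock. Per2 then had 0.17, Per3 0.02 and Cry1 -0.47.

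Counted together, all 10 genes had positive log2 fold changes between conditions (median 0.61), where 8303 of all 16495 genes tested were positive (median 0.00). Per3 was among these with 0.01, a value that changed sign under other scaling. By the quasi-likelihood test of edgeR, adjusted after Benjamini and Hochberg, 0 of the 10 passed an adjusted p of 0.05, as did 0% of all genes tested. Of the 10, 5 had an unadjusted p under 0.05, against 1175 of 16495. DESeq2 called 2 of the 10 (Per1 and Nr1d1), against 84 of all 16495 genes, and limma-voom 0, against 0. Without the filter on low counts edgeR called 4 (those 2 with Nr1d2 and Tef), against 820 of 27611 genes. Within experiment 1, edgeR called 0 of the 10, against 0.606% of all genes tested. In that comparison 6 of the 10 had an unadjusted p under 0.05, against 1824 of 16495. DESeq2 called 2 of the 10 there (again Per1 and Nr1d1), against 721 of all 16495 genes, and limma-voom 0, against 82. Within experiment 2 the count was 0 by edgeR, DESeq2 and limma-voom, against 0, 1 and 0 of all 16495 genes. There 4 of the 10 had an unadjusted p under 0.05, against 288 of 16495. Without the filter on low counts edgeR called 5 of the 10 within experiment 1, against 1152 of 27611 genes, and 2 within experiment 2, against 132. Both Treg-depleted libraries lay above both Treg-sufficient ones in each experiment for 4 genes (Nr1d1, Nr1d2, Per1 and Dbp) and below them for 0, whereas 3.79% of all genes tested lay above and 3.23% below. All 4 Treg-depleted exceeded all 4 Treg-sufficient libraries for 2 of the 10 (Nr1d2 and Per1), against 1.27% of all genes.

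**Figure D3:**
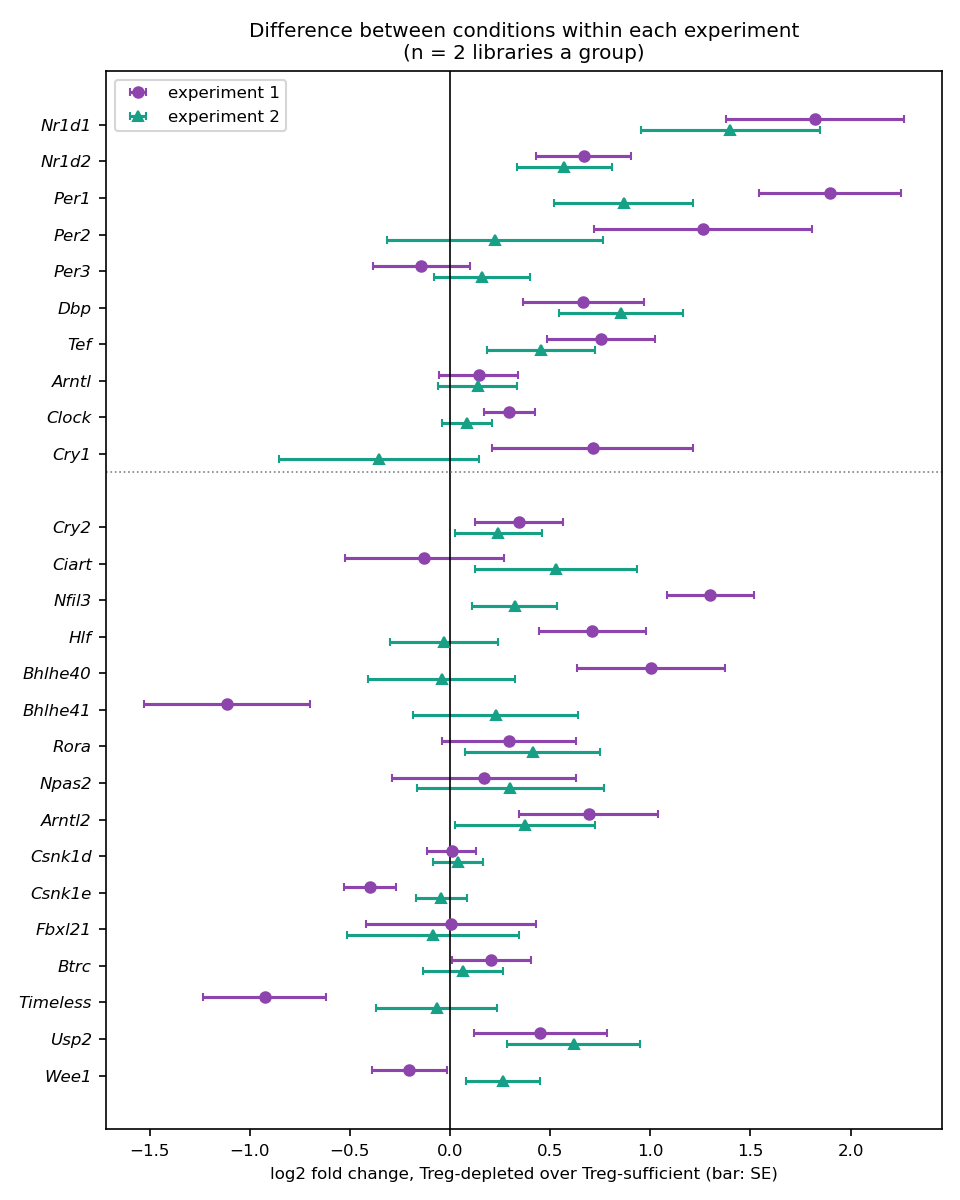
Log2 fold change (Treg-depleted over Treg-sufficient, x axis) with its SE for the 10 clock genes (above the dotted line) and 16 of the other clock genes (below it), in experiment 1 (circles) and experiment 2 (triangles), n = 2 libraries a group. Nr1d1 (1.82 and 1.40) and Per1 (1.90 and 0.87) lie farthest right in both experiments among the 10.

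The difference between the experiments took no part in choosing the genes, so it was tested. None of the 10 genes passed, and the 2 with the largest differences were Nr1d1 and Dbp. Dbp averaged 5.08 ± 2.02 CPM in experiment 2 and 9.32 ± 2.95 CPM in experiment 1 (SD, n = 4; a log2 fold change of -0.90 with SE 0.21 and an edgeR adjusted p of 0.0617). Nr1d1 averaged 15.8 ± 9.60 CPM in experiment 2 and 36.1 ± 30.2 CPM in experiment 1 (-1.09, SE 0.30, edgeR adjusted p = 0.0850). For Tef the log2 fold change was -0.57 (SE 0.19, edgeR adjusted p = 0.122), for Arntl -0.35 (SE 0.13, edgeR adjusted p = 0.172) and for Clock -0.25 (SE 0.09, edgeR adjusted p = 0.15). Per1, Nr1d2 and Per2 had -0.57, -0.34 and -0.37, and Per3 and Cry1 0.02 each, with edgeR adjusted p values between 0.250 and 0.987. In all, 8 of the 10 values were negative and 0 of the 10 were called, against 1.62% of all genes tested. An unadjusted p under 0.05 was found for 5 of the 10, against 3633 of all 16495 genes. DESeq2 called 3 lower (Dbp, Nr1d1 and Tef), against 2167 of 16495, and limma-voom 0, against 296. The log2 fold change of Nr1d1 was -0.74 without Treg-depleted replicate 1. All 8 cell cycle genes had positive log2 fold changes in the same contrast (median 1.14), and the melanocyte marker Dct stood at 61.7 to 184 CPM in experiment 2, against 10.5 to 31.6 CPM in experiment 1. Their part in the clock values was not tested.

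Other genes of the clock were taken from a list of 19, of which 18 were tested (Rorb, with 1 to 14 counts in a library, was left out). Between conditions 14 of the 18 were positive and 4 negative (median 0.19), where 8303 of all 16495 genes tested were positive. By edgeR's test 0 of the 18 passed, against 0 of 16495, and 2 had an unadjusted p under 0.05, against 1175. DESeq2 and limma-voom called 0 of the 18, against 84 and 0 of 16495. Nfil3, the repressor that competes for D-boxes and is itself a REV-ERB target, had the largest value: 104, 95.6, 78.2 and 49.2 CPM in Treg-depleted against 37.8, 43.4, 49.8 and 52.1 CPM in Treg-sufficient replicates 1 to 4 (log2 fold change 0.81, SE 0.22). Its libraries separated in experiment 1 (1.30, SE 0.22) and overlapped in experiment 2 (0.32, SE 0.21). Within experiment 1 DESeq2 called Nfil3 alone of the 18, against 721 of all 16495 genes. EdgeR and limma-voom called 0 of the 18 there, against 100 and 82. The repressor Cry2 had 0.29 (SE 0.15), and Hlf, the remaining D-box activator, 0.35 (SE 0.22). Of the E-box repressors also called DEC1 and DEC2, Bhlhe40 had 0.48 (SE 0.31) and Bhlhe41 -0.44 (SE 0.36). Ciart, which represses CLOCK and BMAL1, had 0.20 (SE 0.29) at 2.12 to 4.29 CPM.

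For Rora, an activator that competes with the REV-ERB proteins, the log2 fold change was 0.35 (SE 0.23). The paralogues of the activators stood at 0.24 (SE 0.31) for Npas2, which can replace CLOCK, and 0.53 (SE 0.24) for Arntl2, where Treg-depleted replicate 1 held 97.0 CPM against 37.3 to 39.9 CPM in the other Treg-depleted libraries. Among genes of the protein turnover of PER and CRY, the casein kinase genes had log2 fold changes of 0.02 (SE 0.08) for Csnk1d and -0.22 (SE 0.10) for Csnk1e, whose Treg-depleted libraries lay below the Treg-sufficient ones in experiment 1 (-0.40, SE 0.13). The ubiquitin ligase genes had 0.14 (SE 0.13) for Btrc and -0.04 (SE 0.28) for Fbxl21. The rhythmic deubiquitinase gene Usp2 (0.53, SE 0.22) was the only gene of the 18 whose Treg-depleted libraries lay above the Treg-sufficient ones in each experiment. That is 1 of the 18, against 3.79% of all genes tested, and nothing is read from it. Timeless, which in mammals works mainly at the replication fork, had -0.49 (SE 0.25), on the side of the cell cycle genes, and the mitotic kinase gene Wee1 0.03 (SE 0.15). Between experiments 0 of the 18 passed by edgeR, against 268 of all 16495 genes, and 7 had an unadjusted p under 0.05, against 3633. The count was 5 of the 18 by DESeq2, against 2167 of 16495 (among them Csnk1e and Timeless higher, Hlf and Arntl2 lower) and 0 by limma-voom. Hlf came nearest by edgeR (6.68 ± 0.509 CPM in experiment 2 and 14.4 ± 5.16 CPM in experiment 1, log2 fold change -1.07, SE 0.22, adjusted p = 0.0530). It was called by edgeR when genes with a mean under 50 normalized counts were dropped, as were 322 of 12944 genes. Without Treg-sufficient replicate 1 it was called too, as were 651 of 16924 genes. Leaving out any other single library gave no call of Hlf.

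**Figure D4:**
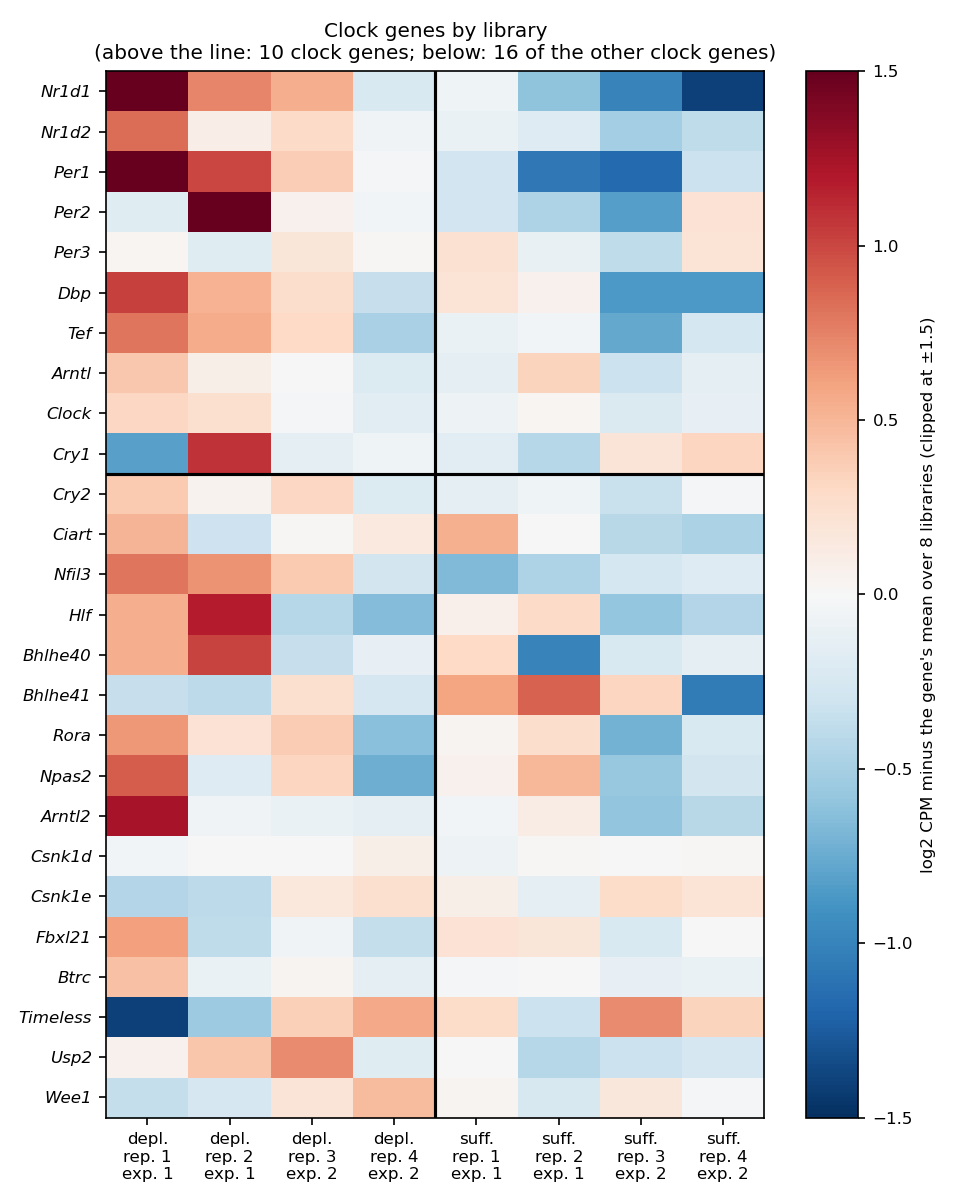
Log2 CPM minus the gene's mean over the 8 libraries (colour, clipped at 1.5 on either side) for the 10 clock genes (above the line) and 16 of the other clock genes, by library, Treg-depleted left and Treg-sufficient right. Treg-depleted replicate 1 holds the highest level of Nr1d1 (79.7 CPM), Per1 (221 CPM) and Dbp (13.4 CPM), while Per2 and Cry1 are highest in Treg-depleted replicate 2 (22.2 and 30.1 CPM).

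Genes of 2 other inputs to Per1 were measured beside these. Of 9 genes listed for the glucocorticoid response, which include the receptor gene Nr3c1, 7 were positive in experiment 1 (median log2 fold change 1.37). EdgeR called 4 there (Tsc22d3, Klf9, Cebpd and Errfi1), against 0.606% of all genes tested. In experiment 2 all 9 were positive (median 0.29). There edgeR, DESeq2 and limma-voom called 0 of the 9, against 0, 1 and 0 of all 16495 genes. By edgeR 1 of the 9 had an unadjusted p under 0.05, against 288 of 16495. Nr3c1 was among the positive genes in both experiments (0.21 and 0.29, SE 0.19 each). The classical target Fkbp5 and the kinase gene Pdk4, with only 0 to 49 counts in a library for Pdk4, had log2 fold changes of -0.19 (SE 0.30) and -0.65 (SE 1.15) in experiment 1. In that experiment DESeq2 called 5 of the 9, against 721 of all 16495 genes, and limma-voom 4, against 82. In most fits without 1 library edgeR called fewer of the 9 in experiment 1, and fewer of all genes tested. Each such fit leaves 1 library in a group of condition and experiment, so those counts are not given. Klf9, a glucocorticoid target that is also rhythmic in skin, stood at 150, 81.7, 42.3 and 33.0 CPM in Treg-depleted against 27.1, 28.9, 20.5 and 29.0 CPM in Treg-sufficient replicates 1 to 4. Tsc22d3, a classical target, stood at 269, 170, 32.0 and 26.6 CPM in Treg-depleted against 33.0, 22.6, 20.6 and 28.2 CPM in Treg-sufficient replicates 1 to 4. Its log2 fold change was 2.98 (SE 0.30) in experiment 1 and 0.26 (SE 0.28) in experiment 2, and the difference of these did not pass (edgeR adjusted p = 0.153). Limma-voom did not call that difference either. DESeq2 did, as for 182 of all 16495 genes, and so did edgeR without the filter on low counts, as for 534 of 27611.

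Immediate early genes, to which Per1 is close in its fast response, were all positive in experiment 1 (12 of 12, median log2 fold change 2.37). EdgeR called 4 of them there, against 0.606% of all genes tested. In experiment 2, 10 of 12 were positive (median 0.52). EdgeR, DESeq2 and limma-voom called 0 of the 12 there, against 0, 1 and 0 of all 16495 genes. By edgeR 0 of the 12 had an unadjusted p under 0.05, against 288 of 16495. In experiment 1 DESeq2 called 11 of the 12, against 721 of all 16495 genes, and limma-voom 5, against 82. Most fits without 1 library called fewer of the 12 by edgeR, and fewer of all genes tested. More of the 12 were called without Treg-sufficient replicate 1, and more of all genes without Treg-depleted replicate 2. Those counts are not given either, for the same reason. In experiment 2 the median log2 fold change of the 10 clock genes was 0.34. The part of these inputs in the clock values was not tested.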

How the data were processed

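Per the labels' protocols, sorted cells were frozen, and RNA from RNeasy columns went into libraries of a stranded TruSeq mRNA kit. The authors deposited raw read counts per Ensembl gene for the 8 libraries; per the submitters' processing notes TopHat2 (version 2), SAMtools, HTSeq and DESeq2 were named with build GRCm38.p4, without their roles. Reads in no gene (6.63 to 10.8% of reads listed), in several genes (2.72 to 3.01%) and aligned to several places (26.2 to 30.6%) entered neither library sizes nor tests. Symbols came from the reference gene table (45143 of 46078 identifiers), coordinates and exon lengths from GENCODE M21 (GRCm38) and promoters from RefSeq (GRCm38.p6).

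Genes were kept by filterByExpr (minimum count 10 by condition; 16495 genes) and tested in R 4.3.3 with edgeR 4.0.16: TMM factors, quasi-likelihood F-test, Benjamini-Hochberg adjustment over all 16495, threshold 0.05. One model held condition and experiment number (5 residual degrees of freedom); a model of 4 groups gave the difference within each experiment and assumes that a group of 2 varies like the others. CPM were computed on TMM-scaled totals, marker and Xist CPM on plain totals. The alternatives were DESeq2 1.42.0, limma-voom 3.58.1, other scaling, filters and terms, and leaving out libraries. The fits were tested on simulated counts. Same-numbered libraries of the 2 conditions, with the condition means removed, correlated over 12958 genes at 0.18 to 0.40, but at -0.22 to -0.19 once experiment means were removed: they share the experiment, which the model holds, and the pairing rests on the letters A to D that the sample titles share. The 10 genes, the lists, the motifs and the rule for naming genes (all 10, and the tested genes of the list of other clock genes, some of which are not reported here) were chosen with earlier results of these data known.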

Additional observations from a re-analysis of the deposited data

Results flagged for a closer look

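Per2 in Treg-depleted replicate 2 (22.2 CPM) stood far from the other 3 Treg-depleted libraries (6.84 to 8.14 CPM). Arntl2 in Treg-depleted replicate 1 (97.0 CPM) stood likewise far from the other 3 (37.3 to 39.9 CPM). These were 2 of 56 groups examined, where chance flags about 1 in 20. The difference in Wee1 between conditions went opposite ways in the experiments (log2 fold change -0.20, SE 0.19, in experiment 1 and 0.26, SE 0.18, in experiment 2). In experiment 1 Treg-depleted libraries lay narrowly below both Treg-sufficient ones, at 18.8 and 20.26 against 24.7 and 20.29 CPM. In experiment 2 they lay above both. The effect in experiment 2 exceeded that in experiment 1 by 0.47 on the log2 scale (SE 0.26, edgeR adjusted p of the difference = 0.951).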

How the results depend on the processing

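The number of genes called changed with the tool and the filter. Without the filter on low counts 820 genes were called between conditions, 1152 within experiment 1, 132 within experiment 2, 534 for the interaction, and 2443 between the experiments. DESeq2 called 84, 721, 1, 182 and 2167 in the same order. The smallest edgeR adjusted p between conditions was 6.74e-119 without the filter and 0.686 with it. The SE of Nr1d1 was 0.174 without the filter and 0.308 with it, at log2 fold changes of 1.605 and 1.614. Calls without the filter thus rest on smaller SE. Without both libraries that held Xist reads the counts were 487 within experiment 1, 89 for the interaction, and 2 between the experiments. The cause was not tested. Both of those libraries are of experiment 1, so that fit compares 1 Treg-depleted with 1 Treg-sufficient library there. Its spread within experiment 1 is taken from experiment 2, and nothing is read from its counts. Each fit without 1 library likewise leaves 1 library in a group of condition and experiment, so its counts are no sign of a stronger difference. Leaving out 1 library at a time gave 0 genes between conditions and within experiment 2, 0 to 442 within experiment 1, 0 to 9 for the interaction, and 0 to 651 between the experiments. The replicate block in place of the experiment number gave 0 genes between conditions and changed no call, as did the crossed replicate block, which was added after seeing the data. Of 630 values of the 10 genes under alternatives, 13 moved by more than the spread between replicates and 7 passed the threshold between experiments where the reported value did not, all without the filter or by DESeq2. Nr1d1, Nr1d2, Per1, Dbp, Tef and Clock kept positive values between conditions and within each experiment in every alternative run. The lowest values within experiment 2 were 0.007 for Tef and 0.009 for Clock. Depth limited Dbp and Per2 most, with 95 and 115 counts in their lowest library.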
